A study of Mus musculus with 13 samples.

Results

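The mitochondrial chromosome of the mouse carries 37 genes whose symbols start with mt-, and all 37 were found by that prefix among the 55291 gene symbols counted in each library. They are 2 ribosomal RNA (rRNA) genes, 13 protein genes and 22 transfer RNA (tRNA) genes, and these classes are described apart. The counts came from the CA1 region of organotypic entorhino-hippocampal tissue cultures, slices of hippocampus and entorhinal cortex kept alive on a membrane. Cultures of C57BL/6 wildtype mice of either sex were prepared at postnatal day 4 to 5 and had matured for at least 18 days in vitro. The 5 control cultures were not lesioned. In 4 cultures the Schaffer collaterals, the axons that run from CA3 to CA1, had been cut (Schaffer collateral lesion, SCL), and in 4 further cultures the entorhinal cortex had been cut off (entorhinal cortex lesion, ECL). Tissue was taken 3 days after the lesion, and each library held tissue of a single culture. The labels do not say whether the cultures of a group came from separate animals, so a p-value measures the spread between cultures only.

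Transcription of mitochondrial DNA runs along nearly the whole circle from each strand. On the heavy-strand transcript the 2 rRNA genes lie first, most protein genes follow, and tRNAs sit between them as points at which the transcript is cut. The products are the rRNAs and tRNAs of the mitochondrial ribosome and core subunits of the respiratory chain and ATP synthase, on which neurons draw heavily. Mitochondrial messenger RNAs carry short A tails. The labels list the molecule measured as polyA RNA, so every level given here is that of RNA captured for cDNA synthesis, and a change in amount and a change in tail cannot be told apart.

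The control libraries totalled 14371152 to 21092612 counts, the SCL libraries 16405517 to 56786613 and the ECL libraries 20210165 to 46449937. Lesioned cultures were thus on the whole read more deeply. Genes with a count did not follow depth, at 29987 to 40042 in the controls, 30230 to 35163 after SCL and 28685 to 33342 after ECL. Control replicates 1, 3 and 4 had more such genes than any lesioned library. The part of this difference in genes with few counts was not tested. Levels are given as CPM, the count per 1000000 counts of library size after TMM scaling. The extraction text in the labels speaks of the dentate gyrus, whereas titles and source name speak of CA1. The summed level of 6 CA1 pyramidal cell markers lay between 277.5 and 491.8 CPM in all 13 libraries, and that of 5 granule cell markers of the dentate gyrus between 12.1 and 24.3. That of 5 CA3 markers lay between 70.3 and 170 CPM. Microglia markers differed between the groups. Their sum over 9 genes had a range of 420 to 503 CPM in the controls. The range was 871 to 1978 CPM in the SCL libraries and 1019 to 1424 CPM in the ECL libraries, and 9 of 9 were called higher after SCL and 6 of 9 after ECL (adjusted p under 0.05 in edgeR). Over all genes tested, 24.9% were called after SCL and 27.8% after ECL. Among 5 neuron markers, 1 was called lower after SCL and 3 after ECL. Of 5 astrocyte markers 3 were called higher after SCL and 2 after ECL, and of 5 oligodendrocyte markers 2 were higher in each. The 1 vascular marker tested was lower in both. None of the 2 erythrocyte markers or the 2 markers of ependyma and choroid plexus reached the minimum for testing. The part of these shifts in the mitochondrial results was not tested.

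Mitochondrial genes took a smaller share of all counts after either lesion, and the rRNA class carried that difference. In the controls the 37 genes held 6.07% to 7.96% of all counts, against 3.42% to 4.26% after SCL and 4.10% to 5.38% after ECL. The rRNA genes held 4.84%, 5.21%, 4.72%, 5.93% and 4.80% of all counts in the 5 control libraries. They held 1.33%, 1.66%, 1.44% and 2.48% in the 4 SCL libraries and 1.75%, 2.41%, 2.43% and 2.34% in the 4 ECL libraries. Every lesioned library lay below every control library, and the lowest control share was 4.72% against a highest lesioned share of 2.48%. The protein genes went the other way in their means, with 1.69% ± 0.239 (SD, n = 5) in the controls, 2.15% ± 0.346 (SD, n = 4) after SCL and 2.38% ± 0.468 (SD, n = 4) after ECL, and the ranges overlapped. The tRNA genes held 0.0119% ± 0.00163 (SD, n = 5), 0.0109% ± 0.00209 (SD, n = 4) and 0.00868% ± 0.00103 (SD, n = 4). These sums are descriptions and carry no test. In bulk tissue, fewer cells of a type and less RNA per cell cannot be told apart.

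**Figure D1:**
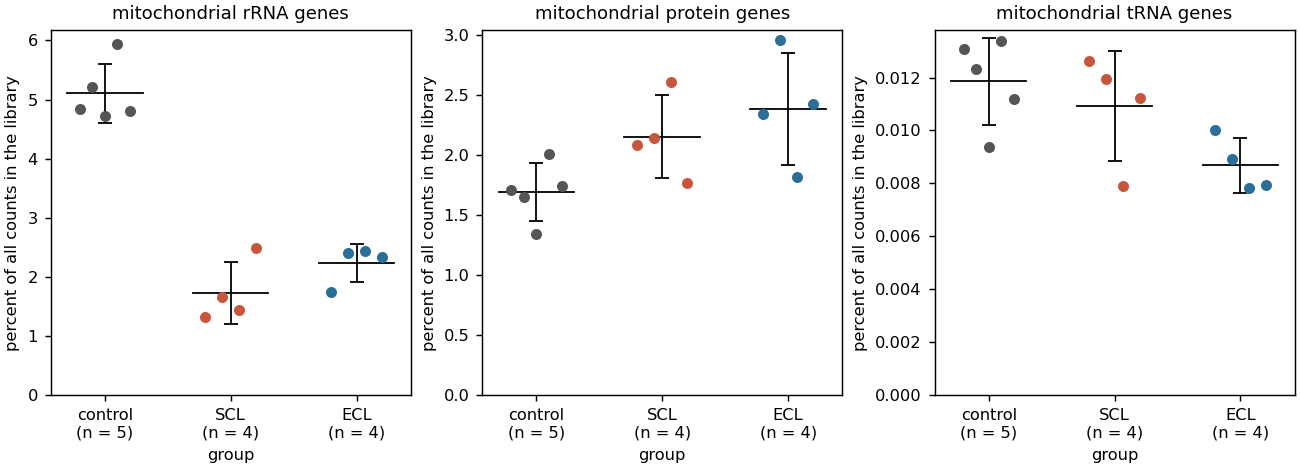
Percent of all counts in a library on the mitochondrial rRNA, protein and tRNA genes (y axes, each with its own scale) by group (x axis). Points are libraries, the line is the mean and the bar its SD. The rRNA share lies between 4.72% and 5.93% in the controls and between 1.33% and 2.48% in the 8 lesioned libraries, whereas the protein gene and tRNA gene shares overlap between groups.

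Within the mitochondrial counts, rRNA made up 73.3% to 77.7% in the controls, 35.5% to 58.2% after SCL and 42.8% to 57.2% after ECL. For each count on a protein gene the control libraries had 2.76 to 3.51 counts on rRNA. This ratio was 0.636, 0.775, 0.551 and 1.40 in the SCL libraries and 0.750, 0.816, 1.34 and 0.966 in the ECL libraries. It needs no scaling between libraries. SCL replicate 4 and ECL replicate 3 lay nearest to the controls.

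Both mitochondrial rRNAs fell after both lesions. mt-Rnr1 encodes the 12S rRNA of the small subunit of the mitochondrial ribosome and spans chrM:70-1024 on the plus strand (GRCm38). mt-Rnr2 encodes the 16S rRNA of the large subunit and spans chrM:1094-2675. Both are single-exon genes with only the gene of the valine tRNA, mt-Tv, between them. Their last 40 bases are shown because the 3′ end is where a tail would be added.

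mt-Rnr1, chrM:985-1024: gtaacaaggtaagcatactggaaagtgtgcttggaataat
mt-Rnr2, chrM:2636-2675: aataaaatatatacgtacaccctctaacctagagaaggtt

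mt-Rnr1 stood at 16981, 18312, 16285, 26454 and 19269 CPM in the controls. It stood at 3504, 4258, 3634 and 6474 after SCL and at 4398, 7282, 7161 and 6857 after ECL. Neither lesion group overlapped with the controls. The log2 fold change was -2.12 ± 0.24 (SE) after SCL and -1.59 ± 0.22 after ECL, with adjusted p-values of 0.000576 and 0.000288 from the edgeR quasi-likelihood test over all genes tested.

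mt-Rnr2 stood at 32275, 33221, 29531, 41901 and 32146 CPM in the controls. It stood at 11092, 11954, 10940 and 17676 after SCL and at 13990, 17969, 16431 and 16060 after ECL. Again no lesioned library reached the controls, and the highest of the SCL libraries was replicate 4. The log2 fold change was -1.39 ± 0.21 (SE) after SCL and -1.06 ± 0.18 after ECL, with adjusted p-values of 0.00177 and 0.0012 in edgeR. Thus 2 of 2 rRNA genes were called lower in each comparison, where 24.9% of the 11438 genes tested were called after SCL (13.1% higher, 11.8% lower) and 27.8% of the 11212 genes tested after ECL (15.2% higher, 12.5% lower). Both rRNA genes were without overlap between the groups, as were 23.7% and 25.1% of the genes tested. The comparisons share the 5 control libraries. Over all genes tested the median log2 fold change was 0.01 after SCL and -0.01 after ECL.

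The 12S rRNA fell further than the 16S rRNA. The controls had 0.526, 0.551, 0.551, 0.631 and 0.599 counts of mt-Rnr1 for each count of mt-Rnr2. The SCL libraries had 0.316, 0.356, 0.332 and 0.366, and the ECL libraries had 0.314, 0.405, 0.436 and 0.427. No lesioned library reached the lowest control. On the log2 scale the ratio differed from the controls by -0.74 after SCL and by -0.54 after ECL, each with p = 0.0159 in a two-sided exact permutation test (5 against 4 libraries), the smallest p this design allows, and an adjusted p of 0.0238 over 3 comparisons. With any 1 lesioned library left out the adjusted p was 0.0536 at differences of -0.77 to -0.70 after SCL and -0.59 to -0.43 after ECL, since fewer libraries allow no smaller p.

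**Figure D2:**
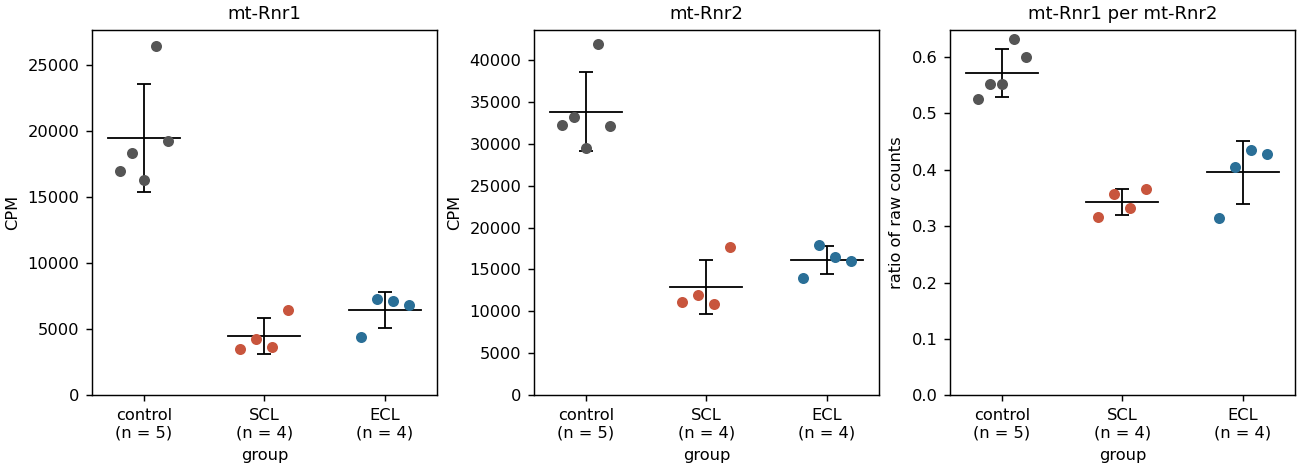
CPM of mt-Rnr1 and mt-Rnr2 and the ratio of their raw counts (y axes) by group (x axis). Points are libraries, the line is the mean and the bar its SD. In all 3 panels the 8 lesioned libraries lie below the lowest of the 5 controls, and the ratio drops from 0.526 to 0.631 in the controls to 0.314 to 0.436 after a lesion.

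The protein genes moved in both directions, and most of those tested were not called. Of the 13, 11 had a mean normalised count of at least 150 and were tested in each lesion comparison. The same 3 were called after SCL and after ECL: mt-Cytb and mt-Atp6 were higher and mt-Nd3 was lower. The other 8 did not pass. The share of called members, 3 of 11, stands beside the 24.9% and 27.8% called over all genes tested, to which it is close. The median log2 fold change of the 11 genes was 0.03 after SCL and 0.06 after ECL.

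mt-Cytb encodes cytochrome b, the core subunit of respiratory complex III, at chrM:14145-15288 on the plus strand, the last protein gene of the heavy-strand transcript. It stood at 1656, 1606, 1333, 1806 and 1823 CPM in the controls. It stood at 6077, 4442, 5869 and 2217 after SCL and at 5866, 6699, 2619 and 4622 after ECL. All 8 lesioned libraries lay above the controls, with SCL replicate 4 and ECL replicate 3 the nearest. The log2 fold change was 1.50 ± 0.25 (SE) after SCL and 1.60 ± 0.23 after ECL, with adjusted p-values of 0.00243 and 0.000387 in edgeR. mt-Cytb took 7.79% to 10.2% of the protein gene counts in the controls, 12.9% to 26.5% after SCL and 14.9% to 23.9% after ECL.

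The gene shares no 100-base stretch with another gene of the annotation. To set it against a protein gene of the same transcript without any scaling, its count was divided by that of mt-Nd5, a subunit of complex I encoded upstream. This ratio was chosen after the values had been seen. It was 1.24 ± 0.222 (SD, n = 5) in the controls, 3.87 ± 0.958 (SD, n = 4) after SCL and 3.35 ± 0.531 (SD, n = 4) after ECL, with no lesioned library below the highest control. On the log2 scale the differences were 1.62 and 1.44. Since the pair of genes was picked for the rise of mt-Cytb, these values are a description and carry no test.

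mt-Cytb is among the 3 protein genes whose length leaves a single base beyond whole codons, the others being mt-Nd4 and mt-Co3. Such genes end in an incomplete stop codon that the A tail completes. Their last 40 bases are shown with that base in capitals, because for them the tail is part of the message.

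mt-Cytb, chrM:15249-15288: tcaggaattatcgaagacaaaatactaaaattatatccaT
mt-Nd4, chrM:11505-11544: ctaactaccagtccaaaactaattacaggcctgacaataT
mt-Co3, chrM:9351-9390: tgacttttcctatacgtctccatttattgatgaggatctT

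Of these 3 genes only mt-Cytb was called. mt-Nd4, a subunit of complex I, had log2 fold changes of 0.03 ± 0.17 (SE) and 0.06 ± 0.19 after SCL and ECL. mt-Co3, a subunit of cytochrome c oxidase, had 0.00 ± 0.15 and -0.18 ± 0.20.

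mt-Atp6 encodes subunit a of ATP synthase, which forms the proton path of the enzyme, at chrM:7927-8607. It was counted at a far lower level, 12.3, 12.4, 9.12, 14.4 and 16.3 CPM in the controls. It stood at 24.4, 27.5, 26.5 and 22.3 after SCL and at 28.4, 40.7, 14.1 and 25.2 after ECL. The SCL libraries lay above all controls, whereas ECL replicate 3 lay within their range. The log2 fold change was 0.97 ± 0.18 (SE) after SCL and 1.08 ± 0.27 after ECL, with adjusted p-values of 0.00439 and 0.00941 in edgeR. The start of mt-Atp6 lies inside mt-Atp8, which encodes another subunit of the enzyme, so reads over the 43 shared bases cannot be given to either. The shared bases are shown with the start codon of mt-Atp6 in capitals.

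mt-Atp8 and mt-Atp6, chrM:7927-7969: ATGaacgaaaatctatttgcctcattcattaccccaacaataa

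mt-Atp8 itself had 2 to 11 counts per control library, 25 to 89 after SCL and 8 to 68 after ECL, and was too low to be tested. Without the minimum its fold change did not pass in edgeR, with log2 fold changes of 1.82 ± 0.66 (SE, adjusted p = 0.0758) and 1.78 ± 0.70 (SE, adjusted p = 0.0674). Leaving out the minimum also moved the scale. The median log2 fold change of all genes fitted was then -0.20 after SCL and -0.19 after ECL. mt-Nd1 moved from 0.09 to 0.30 and from 0.01 to 0.23. All values given without the minimum carry this shift.

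mt-Nd4l, which encodes a small subunit of complex I, was the other protein gene too low to be tested. It had 34 to 108 counts per control library, 36 to 42 after SCL and 20 to 65 after ECL. Its level was 3.49 ± 1.59 CPM (SD, n = 5) in the controls, 1.37 ± 0.669 (SD, n = 4) after SCL and 1.40 ± 0.357 (SD, n = 4) after ECL, and control replicate 2, at 1.79, lay within the range of both lesion groups. Without the minimum its log2 fold changes were -1.15 ± 0.46 (SE, adjusted p = 0.0986) and -1.06 ± 0.43 (SE, adjusted p = 0.0767), which did not pass in edgeR. With the expression filter of edgeR (filterByExpr) in place of the minimum it was called lower after ECL.

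mt-Nd3 encodes a small subunit of complex I at chrM:9459-9806. It stood at 11.4, 6.32, 13.8, 16.3 and 6.05 CPM in the controls. It stood at 2.56, 2.48, 4.99 and 5.22 after SCL and at 3.73, 5.86, 2.40 and 4.66 after ECL. The groups did not overlap, by a narrow margin. Control replicates 1, 3 and 4, the libraries with the most genes counted, stood above control replicates 2 and 5. mt-Nd4l split the same way, at 3.24, 4.05 and 5.90 CPM against 1.79 and 2.49, whereas the rRNA genes and mt-Cytb did not. The part of this library trait in the fall of mt-Nd3 was not tested. The log2 fold change was -1.51 ± 0.37 (SE) after SCL and -1.36 ± 0.35 after ECL, with adjusted p-values of 0.0122 and 0.0117 in edgeR. The gene passed the minimum through its control libraries, with mean normalised counts of 229 against 85.8 in the SCL fit and 213 against 87.0 in the ECL fit, so a gene with these values had to differ to be tested at all. Without control replicate 4 it fell below the minimum in both comparisons, and without control replicate 3 in the ECL comparison. With no minimum it was called lower in both, with adjusted p-values of 0.017 and 0.0185.

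**Figure D3:**
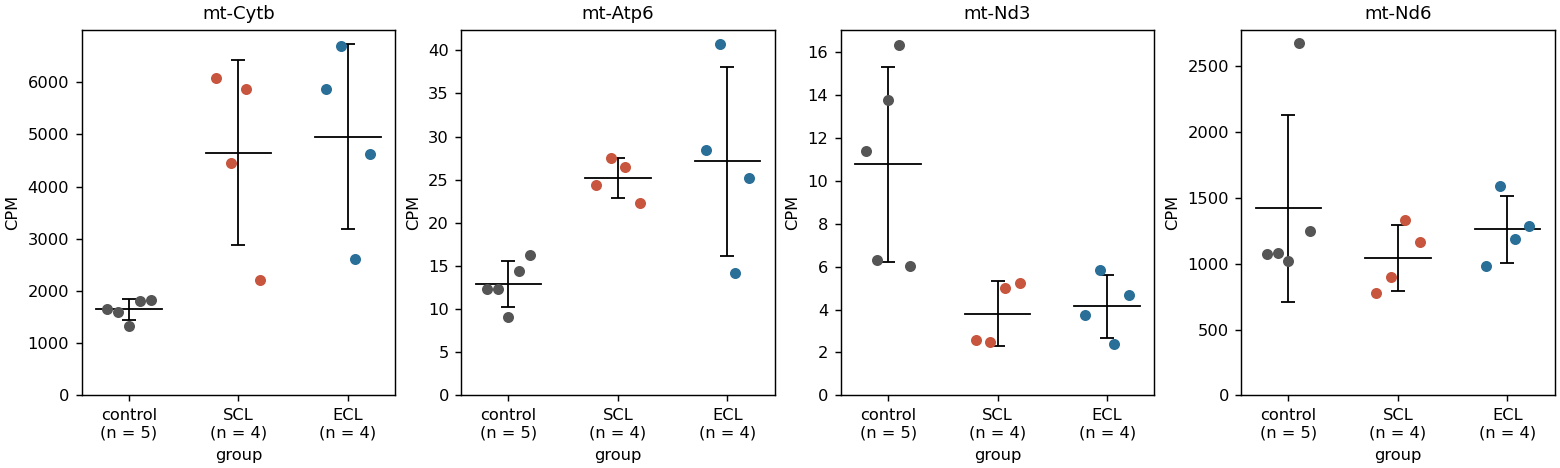
CPM (y axes, each with its own scale) of mt-Cytb, mt-Atp6, mt-Nd3 and mt-Nd6 by group (x axis). Points are libraries, the line is the mean and the bar its SD. mt-Cytb rises from 1333 to 1823 in the controls to 2217 to 6699 after a lesion, mt-Nd3 lies lower after both lesions, and mt-Nd6 overlaps, with control replicate 4 at 2675.

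mt-Nd6, a subunit of complex I, is the only protein gene of the light strand. It stood at 1074, 1081, 1023, 2675 and 1245 CPM in the controls. It stood at 778, 902, 1335 and 1165 after SCL and at 982, 1592, 1189 and 1289 after ECL. The groups overlapped, and control replicate 4 lay far above the other libraries. The log2 fold changes of -0.44 ± 0.28 (SE) and -0.16 ± 0.27 did not pass in edgeR (adjusted p = 0.27 and 0.698). Reads were counted without regard to strand, so RNA of mt-Nd6 and antisense RNA of the heavy-strand transcript at the same place cannot be told apart.

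The other protein genes tested encode further subunits of complex I (mt-Nd1, mt-Nd2, mt-Nd4, mt-Nd5) and the subunits of cytochrome c oxidase (mt-Co1, mt-Co2, mt-Co3). None was called. Together with mt-Nd6 these 8 genes had log2 fold changes from -0.44 to 0.30 after SCL, with adjusted p-values of at least 0.21, and from -0.18 to 0.52 after ECL, with adjusted p-values of at least 0.092 in edgeR. The highest of the 8 after ECL was mt-Co1, the catalytic subunit of cytochrome c oxidase, at 0.52 ± 0.22 (SE). It stood between 4089 and 8303 CPM in the controls and between 7380 and 12101 after ECL, and its call depended on the processing. Without the minimum, where the median of all genes lay at -0.19, it was called in edgeR at 0.73 (adjusted p = 0.0134). By DESeq2, with a median of 0.05, it was called at 0.58 (adjusted p = 0.0263). With TMM factors taken over all symbols the median log2 fold change of the genes tested moved to 0.21 after SCL and 0.18 after ECL, and mt-Co1 was called after ECL at 0.70 (adjusted p = 0.0351), which is 0.52 above that shift. With the same factors mt-Nd2 was called after SCL at 0.51 (adjusted p = 0.0476), and 80.8% and 77.8% of all calls were higher, against 52.8% and 54.8% with the factors used throughout. With the size factors of DESeq2 the share of higher calls after SCL was 64.0%.

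**Figure D4:**
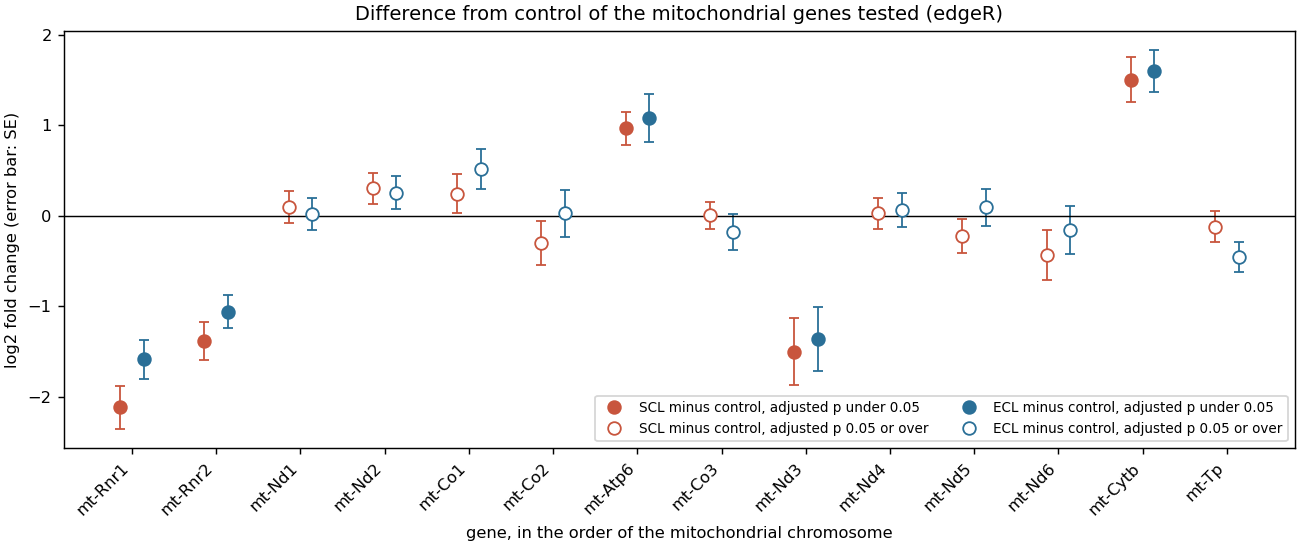
Log2 fold change against control (y axis) with its SE for the 2 rRNA genes, 11 protein genes and 1 tRNA gene tested, in their order on the mitochondrial chromosome (x axis). Filled points passed an adjusted p of 0.05 in edgeR. Both rRNAs at the start lie below 0, mt-Cytb near the end lies at 1.50 and 1.60, and of the genes between them mt-Atp6 and mt-Nd3 are filled.

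The 5 protein genes repeated almost whole in annotated nuclear genes all stood at low levels. The lowest of all, mt-Atp8, shares no 100-base stretch with another annotated gene, but sequence between annotated genes was not searched. The nuclear genome holds insertions of mitochondrial DNA, and the annotation lists a block of them on chromosome 1 between 24611535 and 24616197. In this block the copies of mt-Atp6 (24613974 to 24614651) and of mt-Co2 (24614885 to 24615565) leave a gap. On the mitochondrial chromosome mt-Atp8 lies between mt-Co2 and mt-Atp6, and whether the gap repeats it was not tested. For each gene the share of its 100-base stretches that also occurs in another annotated gene was computed. This share was 99.9% for mt-Co3, 99.5% for mt-Co2 and mt-Atp6, 98.5% for mt-Nd4l and 97.6% for mt-Nd3. It was 60.8% for mt-Nd4, 30.8% for mt-Co1, 3.19% for mt-Nd2 and 0 for mt-Nd1, mt-Nd5, mt-Nd6, mt-Cytb, mt-Atp8 and both rRNAs. In the controls, the 5 genes above 97% stood at means of 11.8 to 39.6 CPM per kb. The 7 others, mt-Atp8 aside, stood at 748 to 4411 per kb, and mt-Atp8 at 1.87, below all 5. These 5 genes together held 0.264% to 0.510% of the protein gene counts of a library. Reads that match several places are commonly left out of such counts, and their part in these levels was not tested.

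**Figure D5:**
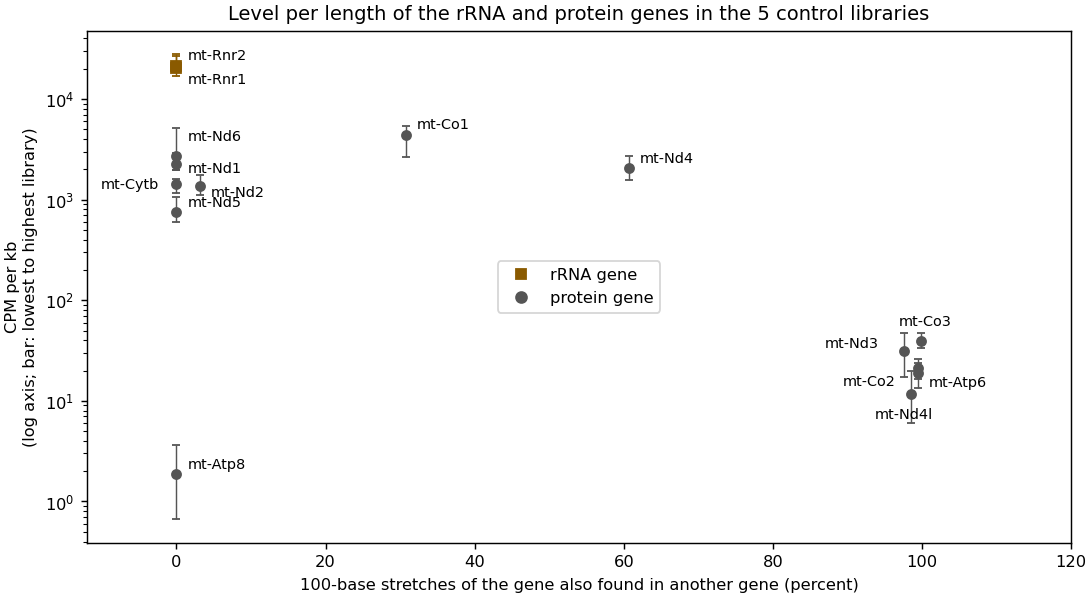
Mean level per length in the 5 control libraries (y axis, log scale, CPM per kb, bars from the lowest to the highest library) against the percent of a gene's 100-base stretches found in another gene (x axis). The 5 protein genes above 97% lie at 11.8 to 39.6, mt-Co1 and mt-Nd4 with partial copies lie at 4411 and 2039, and the rRNA genes lie highest. mt-Atp8, at 0%, lies lowest of all at 1.87.

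Aligned over their length, mt-Co2, mt-Atp6, mt-Co3 and mt-Nd4l were identical to their nuclear copies (Gm28661, Gm10925, Gm28437 and Gm10222). mt-Nd3 and its copy Gm28438 differed at 1 of 345 bases. The 23 bases around that position are shown to give an idea of how alike they are, with the differing base in capitals.

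mt-Nd3, chrM:9459-9481: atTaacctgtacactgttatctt
Gm28438: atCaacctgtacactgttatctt

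The counts of mt-Atp6 and of its copy Gm10925 were alike in size, with means of 12.9 and 14.3 CPM in the controls, 25.2 and 28.9 after SCL and 27.1 and 29.0 after ECL. The same held in the controls for mt-Co2 and Gm28661, with 14.5 and 15.8 CPM. Other pairs were less alike, and mt-Co3 and Gm28437 had 31.02 and 17.8 in the controls. There mt-Nd3 had a mean of 10.8 CPM against 0.908 for its copy Gm28438, and mt-Nd4l had 3.49 against 0.625 for Gm10222. Gm10925 was called higher after both lesions, at log2 fold changes of 1.02 ± 0.21 (SE, adjusted p = 0.00558) and 1.03 ± 0.31 (SE, adjusted p = 0.022) in edgeR. Reads that lie within such identical stretches cannot be told apart by sequence, and the calls of mt-Atp6 and mt-Nd3 are uncertain in that respect. Of the 10 nuclear copies listed, 6 were tested. After SCL 1 was called higher, and after ECL 1 was higher and 2 were lower. Over all genes tested 24.9% and 27.8% were called. Besides Gm10925, the calls were Gm13340 (-0.54 ± 0.16, adjusted p = 0.021) and Gm13341 (-0.84 ± 0.27, adjusted p = 0.0314), both lower after ECL in edgeR.

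Ranked by level per kb, the rRNA genes led in the controls, with mt-Rnr2 at 21375 and mt-Rnr1 at 20377, ranges that overlapped. mt-Co1 followed at 4411, then mt-Nd6 at 2735, mt-Nd1 at 2265, mt-Nd4 at 2039, mt-Cytb at 1438, mt-Nd2 at 1356 and mt-Nd5 at 748. The ranges of neighbours overlapped from mt-Co1 down to mt-Nd2, which took in mt-Cytb. After SCL mt-Rnr2 stood at 8164 per kb, mt-Co1 at 5203, mt-Rnr1 at 4678 and mt-Cytb at 4066. After ECL mt-Rnr2 stood at 10185, mt-Rnr1 at 6727, mt-Co1 at 6277 and mt-Cytb at 4328. By its mean mt-Cytb was thus placed above mt-Nd6, mt-Nd1 and mt-Nd4 in both lesion groups. Its ranges, 1938 to 5312 after SCL and 2289 to 5856 after ECL, overlapped with those of all 3 genes and with those of mt-Rnr1 and mt-Co1. The levels were divided by the whole gene length. Of the 100-base stretches, 60.8% in mt-Nd4, 30.8% in mt-Co1 and 0% in mt-Cytb also occur in another gene. If reads there were left out, mt-Nd4 and mt-Co1 stand too low beside mt-Cytb, which was not tested.

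The 22 tRNA genes were barely covered, and 98.5% of their 36183 counts fell on the proline tRNA gene mt-Tp. Transfer RNAs are short and carry no A tail of their own. Listed at 0 in every library were mt-Tv, mt-Tk, mt-Tg and mt-Tl2, for which a count of 0 allows up to 0.0516 to 0.203 CPM in a library (3 counts). A further 12 tRNA genes had between 1 and 20 counts over all libraries. The 3 with the highest mean counts were mt-Tp, mt-Tf and mt-Tc. The first, mt-Tp, is the last gene along the chromosome and lies on the light strand. mt-Tf, the phenylalanine tRNA, lies at the start of the chromosome, just before mt-Rnr1. Their sequences are shown because they open and close the gene order in which the rRNAs and mt-Cytb lie.

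mt-Tf, chrM:1-68: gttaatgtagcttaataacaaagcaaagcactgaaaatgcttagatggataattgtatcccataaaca
mt-Tp, chrM:15356-15422, minus strand: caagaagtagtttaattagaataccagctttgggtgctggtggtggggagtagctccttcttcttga

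mt-Tp was the only tRNA gene above the minimum. It stood at 129, 118, 87.7, 149 and 117 CPM in the controls. It stood at 138, 116, 79.6 and 108 after SCL and at 104, 92.3, 74.9 and 76.6 after ECL. The groups overlapped. The log2 fold changes of -0.12 ± 0.17 (SE) and -0.46 ± 0.17 were not called in edgeR, with adjusted p-values of 0.642 and 0.0534. The second lies close to the threshold, and without control replicate 3 it became -0.56 (adjusted p = 0.0207) and without ECL replicate 1 -0.55 (adjusted p = 0.0364). Counting did not use strand, so light-strand mt-Tp and heavy-strand RNA running past it cannot be told apart.

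mt-Tf had 34, 9, 19, 54 and 13 counts in the controls, 3, 12, 4 and 1 after SCL and 4, 1, 1 and 1 after ECL. The level lay between 0.474 and 2.95 CPM in the controls and at 0.0434 to 0.206 over the lesioned libraries, without overlap. As with mt-Nd3, control replicates 1, 3 and 4 stood above control replicates 2 and 5. Pooled by group and set against library size, the controls had 10.6 times the count of the SCL libraries (95% exact interval 6.58 to 17.9, counting error only) and 24.1 times that of the ECL libraries (11.4 to 61.2). Without the minimum it was called lower in both comparisons in edgeR, at log2 fold changes of -3.24 ± 0.74 (SE, adjusted p = 0.00792) and -4.26 ± 0.81 (SE, adjusted p = 0.000658). That fit still asked for a total of 10 counts. With 129 counts in the controls and 7 after ECL, mt-Tf entered the ECL fit through its control libraries. It also passed filterByExpr on its control counts. The direction of mt-Tf was that of mt-Rnr1, the next gene on the same strand.

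mt-Tc, the cysteine tRNA of the light strand, had 23, 26, 13, 6 and 7 counts in the controls, 2, 9, 4 and 9 after SCL and 10, 7, 7 and 12 after ECL. Without the minimum its log2 fold changes were -1.91 ± 0.82 (SE, adjusted p = 0.123) and -1.13 ± 0.71 (SE, adjusted p = 0.263), which did not pass in edgeR.

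Between the lesions no mitochondrial gene differed beyond the spread of the libraries. Among the 12232 genes tested in ECL against SCL, 0 (0%) were called by edgeR, 897 had an unadjusted p under 0.05 and 71 were called by DESeq2. The smallest unadjusted p among the mitochondrial genes was that of mt-Rnr1, with a log2 difference of 0.53 ± 0.26 (SE, ECL minus SCL, adjusted p = 0.704). mt-Rnr2 differed by 0.33 ± 0.23 (SE, adjusted p = 0.80), and both rRNAs overlapped. The 10 protein genes tested had differences from -0.18 to 0.33 and adjusted p-values of at least 0.784, mt-Cytb among them at 0.10 ± 0.35 (SE). Of these 13 genes, mt-Tp included, 0 were without overlap, against 3.74% of all genes tested. The log2 ratio of mt-Rnr1 to mt-Rnr2 was 0.20 higher after ECL (p = 0.171, two-sided exact permutation test, 4 against 4 libraries, smallest possible p 0.0286), and that of mt-Cytb to mt-Nd5 differed by -0.18, given without a test. These p-values do not show that the lesions act alike.

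The nuclear genes that transcribe, process and degrade mitochondrial RNA were looked up from a fixed list of 32 symbols. After SCL 26 were tested, of which 4 were called higher and 1 lower. After ECL 25 were tested, of which 4 were higher and 2 lower. Both shares lay below the 24.9% and 27.8% called over all genes tested. The medians of the log2 fold changes were 0.23 and 0.28, against 0.01 and -0.01 over all genes tested. Hsd17b10, a subunit of the mitochondrial RNase P that cuts tRNAs out of the transcript, rose by 1.13 ± 0.18 (SE, log2, adjusted p = 0.00192) and by 1.27 ± 0.18 (adjusted p = 0.000343) in edgeR. Tefm, the elongation factor of mitochondrial transcription, rose by 1.30 ± 0.21 (adjusted p = 0.00223) and by 1.28 ± 0.27 (adjusted p = 0.00384). Fastkd2, an RNA-binding protein that binds the 16S rRNA, rose after SCL by 0.82 ± 0.21 (adjusted p = 0.014). Lrpprc, which stabilises mitochondrial messenger RNAs and promotes their A tails, fell by 0.58 ± 0.15 (adjusted p = 0.0166) and by 0.70 ± 0.18 (adjusted p = 0.0107).

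Of 21 genes for modification of the mitochondrial rRNAs and early ribosome assembly, 17 were tested in each comparison. After SCL 2 were higher and 0 lower, and after ECL 4 were higher and 1 lower, with a median of 0.09 in each. The share called was below the 24.9% of all genes tested after SCL and near the 27.8% after ECL. Trmt61b, which methylates mitochondrial RNA, had log2 fold changes of 1.31 ± 0.41 (SE, adjusted p = 0.0337) and 1.48 ± 0.38 (adjusted p = 0.011). Its mean was 5.16 CPM in the controls, short of the minimum count, and 12.9 after SCL. Trmt61b thus passed the minimum through the lesioned libraries, and a gene with these values had to differ to be tested at all. Mettl15, a methyltransferase of the 12S rRNA, was called at 0.83 ± 0.26 (adjusted p = 0.0352) and 0.72 ± 0.25 (adjusted p = 0.0466). Mrm3, a methyltransferase of the 16S rRNA, was called after ECL at 0.72 ± 0.23 (adjusted p = 0.0293), and Rpusd4, a pseudouridine synthase, at -0.79 ± 0.24 (adjusted p = 0.0264).

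Among 15 genes of mitochondrial DNA maintenance, 11 were tested after SCL, with 2 called higher and 1 lower, and 10 after ECL, with 3 higher and 1 lower. The medians were -0.22 and -0.02. Over all genes tested 24.9% and 27.8% were called, to which 3 of 11 is close and which 4 of 10 exceeds. Dguok, a kinase that supplies deoxynucleotides in mitochondria, rose by 0.48 ± 0.16 (SE, adjusted p = 0.0425) and by 0.80 ± 0.17 (adjusted p = 0.0039). Twnk, the helicase of mitochondrial DNA replication, fell after ECL by 0.83 ± 0.25 (adjusted p = 0.0256), and Tk2, another nucleoside kinase, rose by 0.88 ± 0.26 (adjusted p = 0.0207). Exog, a mitochondrial nuclease, rose by 0.58 ± 0.20 (adjusted p = 0.0493) and by 0.61 ± 0.21 (adjusted p = 0.0441). After SCL Rrm2b, a ribonucleotide reductase subunit, fell by 0.55 ± 0.17 (adjusted p = 0.0365).

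Of 10 regulators of mitochondrial biogenesis 9 were tested in each comparison, and 1 was higher and 1 lower in each, no larger a share than the 24.9% and 27.8% of all genes tested. Ppargc1a, a coactivator that drives biogenesis, fell by 0.45 ± 0.13 (SE, adjusted p = 0.0223) after SCL and by 0.50 ± 0.14 (adjusted p = 0.0202) after ECL, whereas Sirt3, a mitochondrial deacetylase, rose by 1.60 ± 0.29 (adjusted p = 0.0037) and by 2.02 ± 0.25 (adjusted p = 0.000153). The medians were -0.16 and -0.28.

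As RNAs of another compartment, 5 long non-coding RNAs held in the nucleus were examined. Meg3, Snhg11 and Miat were lower after both lesions, where 11.8% and 12.5% of all genes tested were called lower, and Malat1 and Neat1 were not called. Meg3 fell by 0.99 ± 0.17 (SE, log2, adjusted p = 0.00264) and by 1.11 ± 0.17 (adjusted p = 0.000585), Snhg11 by 1.13 ± 0.21 (adjusted p = 0.00362) and by 1.05 ± 0.21 (adjusted p = 0.00262), and Miat by 1.11 ± 0.22 (adjusted p = 0.00488) and by 1.59 ± 0.22 (adjusted p = 0.000355). In ECL against SCL edgeR called 0 of the 12232 genes tested, and so none of the genes of these lists.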

How the data were processed

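RNA was measured in 13 libraries (5 control, 4 SCL, 4 ECL). According to the submitters' processing notes and methods, the authors trimmed reads with cutadapt 3.5, mapped them with STAR 2.7.8a to mm10 and counted them with featureCounts 2.0.1 on GENCODE M25 genes without strand. The deposited counts were raw, and 63.0% to 74.3% of the values from 1 to 20 were even, so each mate of a read pair may have been counted and counting intervals may be too narrow. SCL with control, ECL with control and ECL with SCL were compared by edgeR 4.0.16 (R 4.3.3) with TMM factors over the genes tested, a mean normalised count of at least 150, two-sided quasi-likelihood tests and Benjamini-Hochberg adjustment over all genes tested, with a threshold of 0.05. The study used DESeq2, which was an alternative here (1.42.0), as was limma 3.58.1. On simulated data every gene changed 4-fold and 80.4%, 73.5% and 73.7% of genes changed 2-fold were recovered (SCL, ECL, ECL against SCL), with 3.33%, 6.86% and 3.49% of calls false.

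Positions, lengths and sequences are those of GENCODE M21 transcripts on GRCm38, the only annotation used here. The sex given in the column headings matched sex-linked genes in 13 of 13 libraries (males: 2 control, 1 SCL, 3 ECL) and was a term in an alternative fit. The numbers of the labels were not taken to pair cultures, since the deviations of same-numbered libraries correlated at -0.165 to 0.542. No libraries were alike within sampling noise. Values were printed per library for the rRNA genes, every called protein gene, mt-Nd6 and the 3 tRNA genes with the highest mean count. Of each list the 3 called genes with the smallest adjusted p in a comparison were named with their fold changes. The members and lists were chosen with earlier results of these data known.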

Additional observations from a re-analysis of the deposited data

Results flagged for a closer look

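In 87 groups of 4 or 5 values checked, 8 had a library standing apart by Dixon's criterion at the 95% level, and chance alone marks about 1 in 20 groups. Control replicate 4 accounted for 4 of these. Its normalised counts (CPM) were 2792 for mt-Nd1 (other controls 1873 to 2131), 1924 for mt-Nd5 (1083 to 1315) and 2675 for mt-Nd6 (1023 to 1245), and mt-Cytb took 7.79% of its protein gene counts (9.52% to 10.2%). ECL replicate 1 had 4398 CPM of mt-Rnr1 (other ECL libraries 6857 to 7282) and an rRNA share of all counts of 1.75% (2.34% to 2.43%). SCL replicate 4 had 17676 CPM of mt-Rnr2 (other SCL libraries 10940 to 11954). In SCL replicate 1, mt-Nd5 took 5.70% of the protein gene counts (5.16% to 5.23%). With each of these libraries left out in turn, both rRNA genes and mt-Cytb were called in the comparisons with the controls.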

How the results depend on the processing

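Both rRNA genes were called lower after SCL and after ECL in all 14 alternative settings and all 9 fits that left out a library, and mt-Cytb and mt-Atp6 were called higher in all of them. The number of called protein genes lay between 2 and 4. mt-Nd3 was lost at a threshold of 0.01 and fell below the minimum when counts were halved. With the replicate number of the labels as a block, a pairing that the correlations did not bear out, the calls were 2 of 2 rRNA genes and 3 of 11 protein genes (mt-Atp6, mt-Cytb, mt-Nd3) in each lesion comparison, and the block changed no other call of a member. With the number of the column headings as a block, chosen after seeing the data, 1824 genes were called after SCL.

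Calls over all genes were 1045 after SCL and 1492 after ECL at a threshold of 0.01, and 7596 after ECL without the minimum. ECL against SCL gave 1 call without the minimum, in 1 fit of all libraries and with a sex term, and 71 with DESeq2. With libraries left out the ranges were 1679 to 2797 after SCL, 2088 to 3062 after ECL and 0 to 54 between the lesions, where 1679 and 54 were the counts without SCL replicate 3 and 2 that without ECL replicate 4. Of the tRNA genes, 1 (mt-Tf) was called after SCL and after ECL without the minimum and with filterByExpr. Another 1 (mt-Tp) was called after ECL with scaling without mitochondrial genes, library sizes only or halved counts, and 0 to 1 (mt-Tp) with libraries left out. The mt-Rnr1 to mt-Rnr2 difference ranged from -0.77 to -0.70 (SCL) and -0.59 to -0.43 (ECL), and that of mt-Cytb to mt-Nd5 from 1.52 to 1.83 and 1.35 to 1.54. Causes were not tested.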
